A study of Mus musculus with 46 samples.

Results

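Trem2, Tyrobp, Trem1, Cd33, Siglech, Siglec1, Syk, Fcer1g and Pilra were followed across all 46 libraries of the study. The 9 genes were chosen by name as members of Trem2, Tyrobp, Siglec and ITAM signaling. All 9 are among the 15285 genes listed for sorted cells after white matter microglia (WM) repopulation and LPS, and among the 19930 genes listed for sorted cells after global microglial (GLOBAL) repopulation. For subventricular zone (SVZ) tissue, 6 of the 9 are among the 15695 genes listed, and Trem1, Siglec1 and Pilra are not listed there and were not analysed.

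Microglia sense lipids, sialic acids, antibody complexes and damaged cells through receptors that have no signaling domain of their own. Such receptors pair with a small membrane adaptor, Tyrobp (also called DAP12) or Fcer1g (the common gamma chain of Fc receptors), whose immunoreceptor tyrosine-based activation motif (ITAM) recruits the kinase Syk once it is phosphorylated. Trem2, a lipid and lipoprotein receptor of microglia, Trem1, an amplifier of inflammatory responses in neutrophils and monocytes, and Siglech, a sialic acid-binding lectin found on microglia and plasmacytoid dendritic cells, pair with Tyrobp. Pilra carries inhibitory motifs (ITIMs) that recruit phosphatases and oppose ITAM signaling. Cd33 is a sialic acid-binding lectin that is inhibitory in humans, and the mouse protein lacks the canonical ITIM of the human one. Siglec1 is an adhesion lectin of macrophages that is known as an interferon-induced gene.

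Male C57BL/6 mice, about 2 months old by the figure legends and 1.5 months old by the methods, were used throughout, and PLX3397, an inhibitor of the CSF1 receptor on which microglia depend, was given in chow at 600 ppm. SVZ libraries, 5 per group, were made from tissue of control mice, of mice at the end of 14 days on this diet and of mice that had the same diet followed by 5 days without the drug (recovery). CD11b+CD45int cells were sorted from whole hemispheres after injection of LPS, a bacterial lipopolysaccharide, at 0.33 mg/kg. Control mice gave 3 libraries at 0 hr, 5 at 6 hr and 4 at 24 hr, and WM repopulated mice (14 days of PLX3397, 28 days of recovery) gave 4 at each time. Mice at 0 hr received no LPS. The same kind of cells came from control mice (n = 4) and from GLOBAL repopulated mice (7 days of PLX3397, 28 days of recovery, n = 3). The sort takes any cell with this surface phenotype, so that cells other than microglia can be in the gate. Below, control microglia and WM cells are names for the sorted cells of each origin as a whole.

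Levels are in FPKM, in which reads are scaled by gene length and library size, so that genes can be compared with each other. The 3 tables were normalized apart. The low values are whole multiples of that of a single read, which gave 4.57 to 10.5 M (mega) reads per SVZ library, 4.68 to 10.6 M in the WM experiment and 1.95 to 5.12 M in the GLOBAL experiment, summed over listed genes. All 12 microglial markers averaged at least 1 FPKM in each group of sorted cells, where their sum ranged from 19665 to 42811 FPKM, and 4 of 5 neuronal markers averaged under 1 FPKM in all 6 groups of the WM experiment. Neutrophil markers were also present, with a sum of 10 genes between 442.0 and 15339 FPKM in the WM experiment. SVZ control replicate 1 stood apart in holding 20946 FPKM of Ttr, a gene of choroid plexus, and the members' differences from control in SVZ tissue are given with and without it. Unless another test is named, differences are log2 fold changes of FPKM + 1 from limma with Benjamini-Hochberg adjustment over all genes tested, a gene is called at an adjusted p under 0.05, and ± is the SD over libraries.

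In SVZ tissue, all 5 members that could be tested fell after 14 days of PLX3397, to under 1% of their control level. To be tested, a gene had to reach 1 FPKM in 3 libraries. Trem2, Siglech and Cd33 did so only through the control libraries, so that their being tested depended on a high control level. Syk, the listed member left untested, was at 35.7% of control after PLX3397. Both adaptors had partly returned after 5 days of recovery, and Trem2, Siglech and Cd33 were at lower percentages of control than the adaptors. Of all genes tested, 1.21% were called lower after PLX3397 and 1.09% after recovery, and in 1.92% and 1.97% all libraries were below all control libraries, as in these 5 members. Positions of genes are from RefSeq on GRCm38.p6. In bulk tissue, fewer microglia and less RNA per microglia cannot be told apart.

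Tyrobp (chr7:30413782-30417582), the adaptor of Trem2, was at 45.5, 73.0, 78.9, 67.3 and 49.1 FPKM in the control libraries. It was at 0.391, 0.331, 0.683, 0.368 and 0 FPKM after PLX3397, and at 4.90, 5.97, 5.04, 3.27 and 6.46 FPKM after recovery. The 3 groups did not overlap. PLX3397 lowered Tyrobp to 0.565% ± 0.387 of the control mean (log2 difference -5.54 ± 0.18 SE, adjusted p = 9.14e-13, limma), and recovery brought it to 8.17% ± 1.95 (-3.37 ± 0.18 SE against control, adjusted p = 1.49e-09, limma). Recovery exceeded PLX3397 by 2.17 ± 0.18 SE on the log2 scale (adjusted p = 1.16e-05, limma).

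Fcer1g (chr1:171229572-171234349), the other adaptor, was at 44.9, 42.9, 47.7, 42.7 and 39.0 FPKM in control libraries. After PLX3397 it was at 0.676, 0, 0.295, 0 and 0.828 FPKM, and after recovery at 3.39, 3.69, 4.71, 5.81 and 3.47 FPKM. These groups did not overlap either. The level was 0.829% ± 0.878 of control after PLX3397 (log2 difference -5.07 ± 0.17 SE, adjusted p = 1.31e-12, limma) and 9.70% ± 2.39 after recovery (-3.11 ± 0.17 SE, adjusted p = 1.92e-09, limma), and recovery exceeded PLX3397 by 1.96 ± 0.17 SE (adjusted p = 1.38e-05, limma). Tyrobp and Fcer1g were the 2 members called higher in recovery than under PLX3397, of 5 tested, where 0.29% of all genes were. They were also the 2 with no overlap, as 2.11% of all genes were in this direction.

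Trem2 (chr17:48346401-48352276) was at 15.5 FPKM in SVZ control replicate 1 and at 23.9, 24.5, 24.4 and 26.4 FPKM in the other control libraries. After PLX3397 it was listed at 0 in 4 of 5 libraries and at 0.409 FPKM, or 4 reads, in the fifth. After recovery it was at 0.512, 1.45, 0.211, 0.855 and 0.582 FPKM. All recovery libraries were below all control libraries, and the recovery and PLX3397 groups overlapped. Pooled over libraries, Trem2 reads were at 0.346% of control after PLX3397 (95% exact binomial interval 0.0941 to 0.89%, counting error only) and at 3.12% after recovery (2.12 to 4.44%). The differences from control were -4.46 ± 0.18 SE (adjusted p = 1.94e-11, limma) and -3.82 ± 0.18 SE (adjusted p = 2.85e-10, limma). Recovery against PLX3397 gave 0.64 ± 0.18 SE (95% interval 0.27 to 1.02, adjusted p = 0.14, limma), and this difference was called with a pseudocount of 0.1, at 2.38 (adjusted p = 0.026, limma).

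Siglech (chr7:55768154-55779448) was at 9.0, 10.4, 11.5, 8.56 and 10.8 FPKM in control libraries. It was at 0 in 4 of 5 libraries after PLX3397 and at 0.186 FPKM in the other, and at 0.388, 0.355, 0.144, 0.259 and 0.317 FPKM after recovery. Control libraries lay above all others. Pooled reads were at 0.364% of control after PLX3397 (0.099 to 0.937%) and at 2.77% after recovery (1.81 to 4.07%). The log2 differences from control were -3.41 ± 0.10 SE (adjusted p = 3.02e-13, limma) and -3.09 ± 0.10 SE (adjusted p = 5.02e-12, limma). Recovery against PLX3397 was 0.32 (95% interval 0.11 to 0.53, adjusted p = 0.187, limma) and was called with a pseudocount of 0.1, at 1.63 (adjusted p = 0.0191, limma).

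Cd33 (chr7:43527399-43537424) ranged from 1.34 to 2.49 FPKM in control libraries. A single read was found in 1 of 5 libraries after PLX3397, and 8 reads in all after recovery. The pooled level was 0.424% of control after PLX3397 (0.0107 to 2.4%) and 3.82% after recovery (1.62 to 7.72%). On the log2(FPKM + 1) scale, which understates changes of genes this low, Cd33 fell by 1.54 (adjusted p = 4.12e-08, limma) and by 1.43 (adjusted p = 1.31e-07, limma). The difference between recovery and PLX3397 was 0.10 (95% interval -0.12 to 0.33, adjusted p = 0.657, limma).

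Syk (chr13:52582610-52648792), the kinase downstream of both adaptors, was too low in SVZ tissue to be tested. It ranged from 0.295 to 0.601 FPKM in control libraries, from 0.0211 to 0.35 FPKM after PLX3397 and from 0.0871 to 0.409 FPKM after recovery, and these ranges overlapped. Pooled Syk reads were at 33.1% of control after PLX3397 (21.8 to 49.3%, counting error only; 21.5% without SVZ_PLX3397 replicate 3, which held 19 of the 38 reads) and at 44.1% after recovery (29.9 to 64.5%), against 10.1% or less for each of the other 5 members after recovery.

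The 12 microglial markers were at a median of 1.39% of control after PLX3397 and 5.96% after recovery, and 11 of 12 were called lower in both comparisons. Csf1r, the target of PLX3397, was at 0.419% and 3.91%, C1qa at 0.144% and 5.46%, and Aif1 at 2.84% and 10.4%. Olfml3 was at 15.6% and 26.1%, and Sall1 at 77.0% and 71.3%. Without SVZ control replicate 1, all 5 members kept their calls against control, with log2 differences of -5.65 for Tyrobp, -5.06 for Fcer1g, -4.59 for Trem2, -3.44 for Siglech and -1.62 for Cd33 after PLX3397, and of -3.48, -3.10, -3.94, -3.13 and -1.51 in the same order after recovery. The percentages of control, marker values and pathway counts in SVZ tissue include that library. The 2 listed neutrophil markers, of 10, had a median sum of 1.19 FPKM in control libraries, 0.721 FPKM after PLX3397 (highest 4.22) and 9.26 FPKM after recovery (lowest 1.71), with a median log2 difference of 1.39 between recovery and PLX3397, and neither was called. Border macrophage markers summed to 3.9 to 7.72 FPKM in control libraries, 1.21 to 2.49 FPKM after PLX3397 and 1.38 to 3.14 FPKM after recovery. Of 3 tested, 1 was called lower after PLX3397 and 0 after recovery. Astrocyte markers summed to 333.4 to 369.1, 419.0 to 467.9 and 440.3 to 573.0 FPKM in the same order, with 1 of 5 called higher in both. The part of these cells and of neutrophils in the levels of the members, the adaptors included, was not tested.

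**Figure D1:**
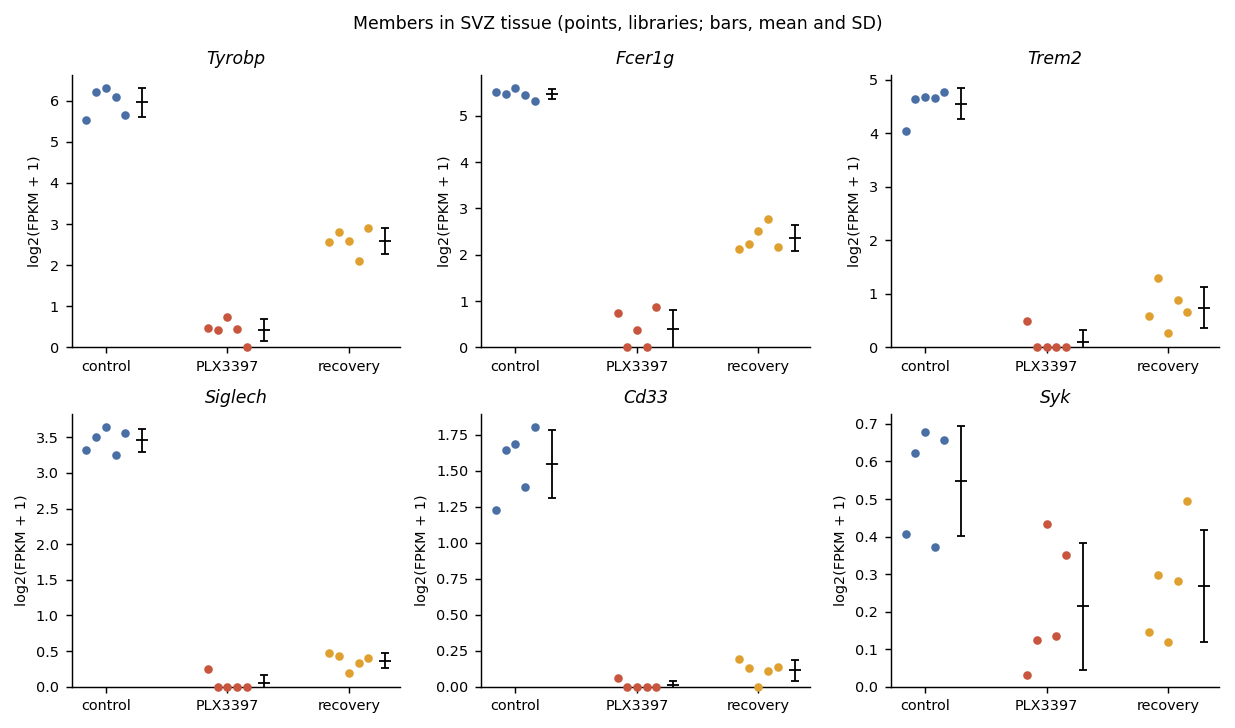
Levels of the 6 listed members in SVZ tissue, as log2(FPKM + 1) on axes that differ between panels, for control, PLX3397 and recovery libraries (points, n = 5 each, with mean and SD as bars). Control libraries lie above all others for every gene but Syk, and Tyrobp and Fcer1g are higher in all recovery libraries than in all PLX3397 libraries.

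Within the sorted cells of control mice at 0 hr, the adaptors were highest, at 3084 ± 286.5 FPKM for Fcer1g and 2750 ± 208.6 FPKM for Tyrobp, whose ranges overlapped. Trem2 followed at 2251 ± 142.4 FPKM, Siglech at 738.9 ± 105.8, Cd33 at 109.6 ± 4.94, Syk at 21.9 ± 1.59 and Pilra at 12.3 ± 1.83 FPKM, each apart from its neighbours. Trem1, at 0.907 ± 0.832 FPKM, and Siglec1, at 0.66 ± 0.221 FPKM, were lowest and overlapped.

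LPS moved the receptors in opposite directions. In control microglia at 6 hr, Trem1, Siglec1, Pilra and Fcer1g rose and Trem2, Siglech and Tyrobp fell, so that 7 of 9 members were called, where 42.5% of all genes tested were called (21.4% higher, 21.1% lower). The same 7 were called in WM repopulated cells at 6 hr, against 38.8% of all genes (19.3% higher, 19.5% lower). At 24 hr, 6 of 9 were called in either origin, against 21.3% of all genes in control microglia (12.1% higher, 9.23% lower) and 18.8% in WM cells (10.5% higher, 8.29% lower). Groups that do not overlap were found in 38.1% of all genes at 6 hr and 29.5% at 24 hr in control microglia, and in 39.9% and 25.1% in WM cells. The 2 origins do not share libraries, but the 6 hr and 24 hr comparisons of an origin share the 0 hr libraries. Siglec1, among the called members at both times, entered the tests only through libraries after LPS.

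Trem2 fell in both origins. In control microglia it was at 2090, 2361 and 2301 FPKM at 0 hr, at 803.1, 794.1, 779.8, 686.5 and 737.9 FPKM at 6 hr, and at 1036, 1009, 1092 and 883.7 FPKM at 24 hr. In WM cells it was at 2295, 2305, 2354 and 2655 FPKM at 0 hr, at 838.3, 1032, 1161 and 927.2 FPKM at 6 hr, and at 1139, 831.7, 924.0 and 1102 FPKM at 24 hr. All libraries after LPS were below all libraries at 0 hr. The fall was -1.57 ± 0.13 SE at 6 hr and -1.16 ± 0.14 SE at 24 hr in control microglia (adjusted p = 1.61e-09 and 1.81e-06, limma), and -1.29 ± 0.13 SE and -1.27 ± 0.13 SE in WM cells (adjusted p = 2.42e-08 and 1.85e-07, limma). The 12 microglial markers moved alongside: 8 of 12 were called lower at 6 hr in either origin, with median log2 differences of -1.39 in control microglia and -1.01 in WM cells, and 7 and 8 at 24 hr, with medians of -0.64 and -0.84 and 1 marker called higher in each. Their summed level had a median of 36567 FPKM at 0 hr and 20111 FPKM at 6 hr in control microglia, and of 39156 and 23509 FPKM in WM cells. Their part in the falls of Trem2 and Siglech was not tested.

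Trem1 (chr17:48232713-48246927), which lies 99.5 kb from Trem2, rose. In control microglia it was at 1.63, 0 and 1.09 FPKM at 0 hr, at 27.5, 56.6, 11.9, 47.2 and 28.3 FPKM at 6 hr, and at 9.80, 17.2, 4.93 and 6.70 FPKM at 24 hr. Trem1 in WM cells was at 2.44, 2.79, 2.74 and 0.427 FPKM at 0 hr, at 35.6, 48.6, 24.7 and 20.7 FPKM at 6 hr, and at 8.62, 32.9, 17.2 and 7.28 FPKM at 24 hr. Every library after LPS was above every 0 hr library of its origin, with a spread of 4.75-fold between the control libraries at 6 hr. The rise was 4.15 ± 0.49 SE at 6 hr and 2.46 ± 0.51 SE at 24 hr in control microglia (adjusted p = 3.4e-07 and 0.00122, limma), and 3.46 ± 0.47 SE and 2.37 ± 0.47 SE in WM cells (adjusted p = 3.53e-06 and 0.000963, limma).

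Trem1 is known in neutrophils and monocytes, whose markers were in these libraries. Of 7 monocyte markers, 6 were called higher at 6 hr in either origin, and their sum went from 113.0 to 360.1 FPKM at 0 hr to 1444 to 2966 FPKM at 6 hr in control libraries, and from 138.3 to 430.3 FPKM to 1524 to 3943 FPKM in WM libraries. Of 10 neutrophil markers, 6 were called lower and none higher at 6 hr in WM cells, with a median sum of 4376 FPKM at 0 hr and 774.4 FPKM at 6 hr, although WM_6hr replicate 1 held 10297 FPKM. In control libraries 1 neutrophil marker was called lower and none higher at 6 hr. Within groups, the 2 control libraries with the highest Trem1 at 6 hr, replicates 2 and 4, also had the highest neutrophil sums (5808 and 4223 FPKM), and replicate 2 was highest in both at 24 hr in control (15339 FPKM) and in WM libraries (7234 FPKM). In WM libraries at 6 hr Trem1 was highest in replicate 2, at a neutrophil sum of 839.1 FPKM. The part of these cells in the rise of Trem1 was not tested. Without Control_6hr replicate 2, the library with the highest Trem1, the rise in control microglia was 3.93 (adjusted p = 9.96e-07, limma).

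**Figure D2:**
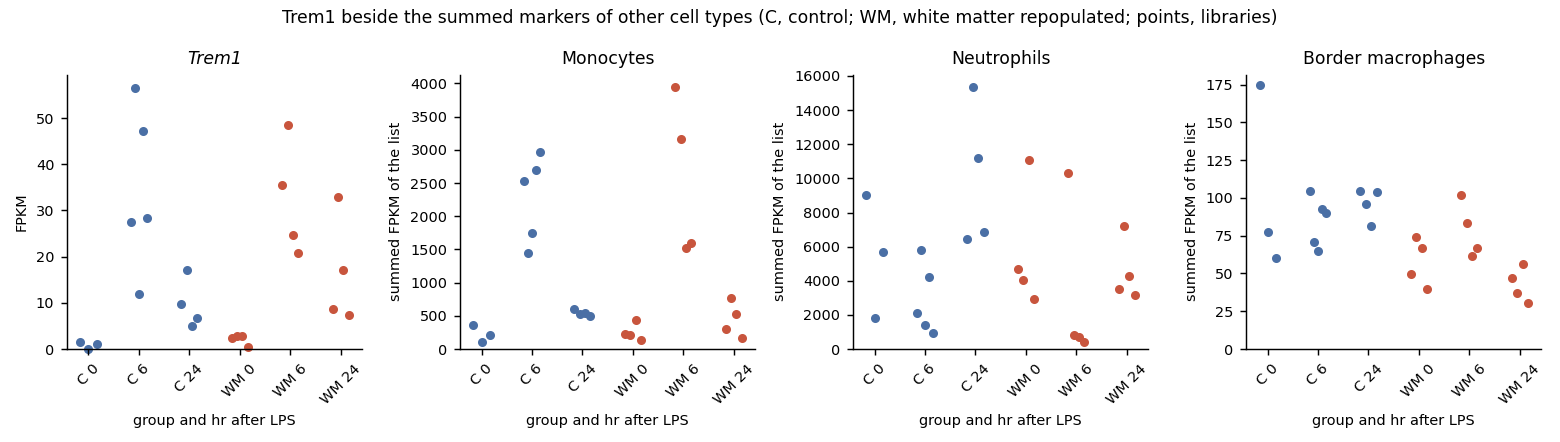
Trem1 in FPKM beside the summed FPKM of the marker lists of monocytes (7 genes), neutrophils (10 genes) and border macrophages (9 genes), by library, for control (C) and WM repopulated (WM) cells at 0, 6 and 24 hr after LPS. In both origins the medians of Trem1 and of the monocyte list are highest at 6 hr, and that of the neutrophil list is lowest at 6 hr.

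Because Trem1 and Trem2 moved apart, and Siglech and Pilra did as well, the 250 bases before the start of a RefSeq transcript of each are shown (RefSeq, GRCm38.p6, the assembly of the mm10 build that the submitters name). Capitals mark matches, on either strand, to GAGGAA (the core of sites of PU.1, a factor of myeloid cells), TGANTCA (the AP-1 type) or the NF-kappaB type of site (GGG, any 5 bases, CC). In all, 32851 promoters of this length were searched for the 3 motifs, which were chosen with the members' values known. Entries were found for 7 of the 9 members, and for Tyrobp and Siglec1 none was used. The window of Trem1 is chr17:48232489-48232738, plus strand, that of Trem2 is chr17:48346151-48346400, plus strand, that of Siglech is chr7:55767934-55768183, plus strand, and that of Pilra is chr5:137836279-137836528, minus strand.
Trem2: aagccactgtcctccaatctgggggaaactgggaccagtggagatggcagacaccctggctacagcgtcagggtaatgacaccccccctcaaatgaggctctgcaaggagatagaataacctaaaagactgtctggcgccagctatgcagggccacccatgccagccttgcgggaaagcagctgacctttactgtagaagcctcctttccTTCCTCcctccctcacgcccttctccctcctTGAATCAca
Siglech: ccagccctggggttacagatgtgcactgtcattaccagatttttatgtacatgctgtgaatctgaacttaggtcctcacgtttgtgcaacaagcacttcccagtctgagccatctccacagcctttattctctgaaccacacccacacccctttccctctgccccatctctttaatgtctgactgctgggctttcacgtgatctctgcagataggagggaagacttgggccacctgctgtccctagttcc
Trem1: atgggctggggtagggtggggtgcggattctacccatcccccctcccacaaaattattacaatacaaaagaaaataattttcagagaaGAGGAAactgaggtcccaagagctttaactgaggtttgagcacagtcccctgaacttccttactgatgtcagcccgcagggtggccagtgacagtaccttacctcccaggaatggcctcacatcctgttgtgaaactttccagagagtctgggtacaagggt
Pilra: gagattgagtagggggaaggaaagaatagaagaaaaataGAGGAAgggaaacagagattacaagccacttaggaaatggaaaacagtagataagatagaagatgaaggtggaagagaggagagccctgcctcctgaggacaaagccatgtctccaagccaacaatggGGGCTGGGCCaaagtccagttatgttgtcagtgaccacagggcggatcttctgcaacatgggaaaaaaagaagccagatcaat

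GAGGAA was matched once in the windows of Trem1, Trem2 and Pilra and not in that of Siglech, and is found in 23.3% of all promoters searched. TGANTCA was matched once, in the window of Trem2, and is in 6.75% of promoters. The NF-kappaB type was matched once in the window of Pilra, and is in 45.8% of promoters. Among the members whose windows are not shown, it was matched 2 times for Fcer1g and 1 time in a window of Syk. GAGGAA was matched 1 time each for Cd33 and in another window of Syk. These matches are a description of the letters in each window.

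Siglech fell in both origins, beside the fall of the microglial markers given above (median -1.39 at 6 hr in control microglia). It was at 617.7, 812.5 and 786.5 FPKM in control microglia at 0 hr, and ranged from 214.6 to 364.2 FPKM at 6 hr and from 187.8 to 333.7 FPKM at 24 hr. Siglech in WM cells ranged from 635.9 to 843.2 FPKM at 0 hr, from 222.7 to 291.9 FPKM at 6 hr and from 208.6 to 274.4 FPKM at 24 hr. No library after LPS reached a 0 hr library. The differences were -1.47 ± 0.18 SE and -1.63 ± 0.19 SE at 6 and 24 hr in control microglia (adjusted p = 4.96e-07 and 1.56e-06, limma), and -1.50 ± 0.17 SE and -1.60 ± 0.17 SE in WM cells (adjusted p = 2.98e-07 and 6.73e-07, limma). Siglech is also known in plasmacytoid dendritic cells, 5 of whose 6 markers are listed here, with a sum of 29.8 to 76.3 FPKM over the libraries of this experiment, most of it from Tcf4 and Cox6a2. Of the 4 tested, 1 was called higher after LPS at both times in both origins, and 1 was called lower at 24 hr in control microglia. Ccr9 had a median of at most 0.795 FPKM and Ly6d of at most 1.70 FPKM, with Ly6d at 0 in all 3 control libraries at 0 hr. The sort required CD11b, which these cells are known to carry at low levels or not at all, and their part in the values of Siglech was not tested.

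The adaptors diverged. Tyrobp was at 2553, 2969 and 2728 FPKM in control microglia at 0 hr and at 2142, 2247, 1968, 2167 and 1966 FPKM at 6 hr, with no overlap (-0.39 ± 0.12 SE, adjusted p = 0.012, limma). It ranged from 2909 to 3241 FPKM in WM cells at 0 hr and from 2080 to 2474 FPKM at 6 hr (-0.47 ± 0.12 SE, adjusted p = 0.00289, limma). Its 24 hr differences were -0.26 in control microglia (95% interval -0.52 to 0.01, adjusted p = 0.158, limma) and -0.36 in WM cells (adjusted p = 0.0352, limma). Tyrobp calls were lost at 6 hr with quantile normalization (adjusted p = 0.0914 and 0.0582, limma), at 6 hr in control microglia without Control_0hr replicate 2 (-0.33), and at 24 hr in WM cells without WM_0hr replicate 2, 3 or 4 or WM_24hr replicate 2 or 4, at -0.36 to -0.30.

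Fcer1g rose at 6 hr. It was at 3219, 3278 and 2755 FPKM in control microglia at 0 hr and at 4101, 5333, 3659, 4348 and 4231 FPKM at 6 hr (0.48 ± 0.15 SE, adjusted p = 0.00953, limma). In WM cells it was at 2476, 3033, 2990 and 3219 FPKM at 0 hr and at 4298, 4382, 4190 and 3507 FPKM at 6 hr (0.48 ± 0.14 SE, adjusted p = 0.00854, limma). The groups did not overlap at 6 hr. Its 24 hr differences were 0.32 in control microglia (95% interval 0.00 to 0.63, adjusted p = 0.146, limma) and 0.28 in WM cells (-0.01 to 0.57, adjusted p = 0.172, limma). Without Control_0hr replicate 3 the 6 hr call in control microglia was lost, at 0.40 (adjusted p = 0.062, limma). At 6 hr 6 of 7 monocyte markers were called higher in either origin. Control_6hr replicate 2, highest in Fcer1g, held the highest neutrophil sum of its group (5808 FPKM). In WM libraries at 6 hr Fcer1g was highest in replicate 2, at a neutrophil sum of 839.1 FPKM. The part of these cells in the levels and ratio of the adaptors after LPS was not tested.

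Within a library, the ratio of Fcer1g to Tyrobp was 1.12 ± 0.127 in control microglia at 0 hr, 2.06 ± 0.207 at 6 hr and 1.71 ± 0.444 at 24 hr. In WM cells it was 0.937 ± 0.0653, 1.81 ± 0.111 and 1.46 ± 0.0285. All libraries after LPS, with ratios of at least 1.33, lay above all 0 hr libraries, which reached at most 1.26.

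Syk was not called after LPS in either origin. It was at 20.7, 21.4 and 23.7 FPKM in control microglia at 0 hr and at 17.9, 42.1, 21.7, 22.9 and 18.1 FPKM at 6 hr, with Control_6hr replicate 2 far above the rest. Its differences were 0.09 (95% interval -0.30 to 0.48) at 6 hr and -0.04 (-0.45 to 0.37) at 24 hr in control microglia, and -0.40 (-0.78 to -0.02) and -0.04 (-0.42 to 0.34) in WM cells, with adjusted p of 0.744, 0.912, 0.0886 and 0.912 (limma). Fitting only the WM 0 and 6 hr libraries called Syk at -0.40 (adjusted p = 0.0215, limma).

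Pilra rose after LPS in both origins. In control microglia Pilra was at 12.9, 13.8 and 10.3 FPKM at 0 hr, at 28.7, 25.0, 36.9, 36.3 and 32.5 FPKM at 6 hr, and at 77.3, 72.4, 64.9 and 85.8 FPKM at 24 hr. The 3 times did not overlap, with differences of 1.30 ± 0.22 SE at 6 hr and 2.51 ± 0.23 SE at 24 hr (adjusted p = 5.12e-05 and 1.2e-07, limma). Pilra in WM cells was at 33.3, 25.9, 26.2 and 25.6 FPKM at 0 hr, at 96.6, 62.7, 40.2 and 58.9 FPKM at 6 hr, and at 133.9, 64.5, 116.8 and 87.2 FPKM at 24 hr (1.13 ± 0.22 SE and 1.78 ± 0.22 SE, adjusted p = 0.000194 and 2.97e-06, limma). Pilra (chr5:137821952-137836278) overlaps Zcwpw1 and has near-identical relatives, Pilrb1 and Pilrb2, so that reads may be shared. Monocyte markers rose at 6 hr in both origins. In WM libraries at 6 hr Pilra was highest in replicate 1, which held the highest monocyte (3943 FPKM) and neutrophil (10297 FPKM) sums. In control libraries at 6 hr it was lowest in replicate 2, which held the highest neutrophil sum (5808 FPKM). At 24 hr in WM libraries it was lowest in replicate 2, with the highest neutrophil sum (7234 FPKM). The part of these cells in the values of Pilra was not tested.

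Siglec1 (chr2:131067801-131086778) was at 0.582, 0.909 and 0.488 FPKM in control microglia at 0 hr, at 4.55, 1.01, 2.97, 4.34 and 4.13 FPKM at 6 hr, and at 5.23, 7.48, 3.61 and 1.38 FPKM at 24 hr. Siglec1 in WM cells was at 1.74, 0.248, 0.583 and 0.723 FPKM at 0 hr, at 6.50, 5.49, 2.42 and 7.49 FPKM at 6 hr, and at 7.32, 5.92, 8.39 and 4.31 FPKM at 24 hr. No library after LPS overlapped the 0 hr libraries of its origin. Siglec1 entered the tests only through libraries after LPS, since at 0 hr only the WM library at 1.74 FPKM reached 1 FPKM. It rose by 1.33 ± 0.37 SE and 1.57 ± 0.39 SE in control microglia (adjusted p = 0.00569 and 0.00507, limma) and by 1.81 ± 0.36 SE and 2.07 ± 0.36 SE in WM cells (adjusted p = 0.000294 and 0.000225, limma). Siglec1 is also known in border macrophages. The sum of their 9 markers was 60.1 to 174.4 FPKM in control libraries at 0 hr and 65.0 to 104.7 FPKM at 6 hr, and 39.9 to 73.9 FPKM and 61.6 to 102.0 FPKM in WM libraries, with 2 of 8 tested markers called higher and 5 lower at 6 hr in control libraries and 2 and 2 in WM libraries. At 24 hr the sum was 81.4 to 104.6 FPKM in control and 30.3 to 56.2 FPKM in WM libraries, with 1 called higher and 1 lower in control libraries and 0 and 1 in WM libraries. Their part in the rise of Siglec1 was not tested.

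Cd33 was at 113.8, 110.8 and 104.2 FPKM in control microglia at 0 hr, between 47.7 and 136.5 FPKM at 6 hr, and at 53.5, 65.4, 54.7 and 37.9 FPKM at 24 hr. The fall at 24 hr was -1.06 ± 0.30 SE (adjusted p = 0.0129, limma), and at 6 hr the difference was -0.34 (95% interval -0.93 to 0.25, adjusted p = 0.363, limma). In WM cells at 24 hr Cd33 was at 73.0, 159.7, 72.9 and 46.6 FPKM against 115.3 to 137.3 FPKM at 0 hr (-0.65, 95% interval -1.23 to -0.08, adjusted p = 0.104, limma). Without WM_24hr replicate 2, the library at 159.7 FPKM, the difference was called, at -0.99 (adjusted p = 0.00715, limma). That library also held the highest neutrophil sum (7234 FPKM), monocyte sum (768.7 FPKM) and Trem1 (32.9 FPKM) of its group. In control microglia at 6 hr, Cd33 was highest in replicates 2 and 4 (115.9 and 136.5 FPKM), which had the highest neutrophil sums. The part of these cells in the values of Cd33 was not tested. At 6 hr in WM cells the difference was -0.48 (adjusted p = 0.178, limma), and it was called when only the WM 0 and 6 hr libraries were fitted (adjusted p = 0.00129, limma).

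**Figure D3:**
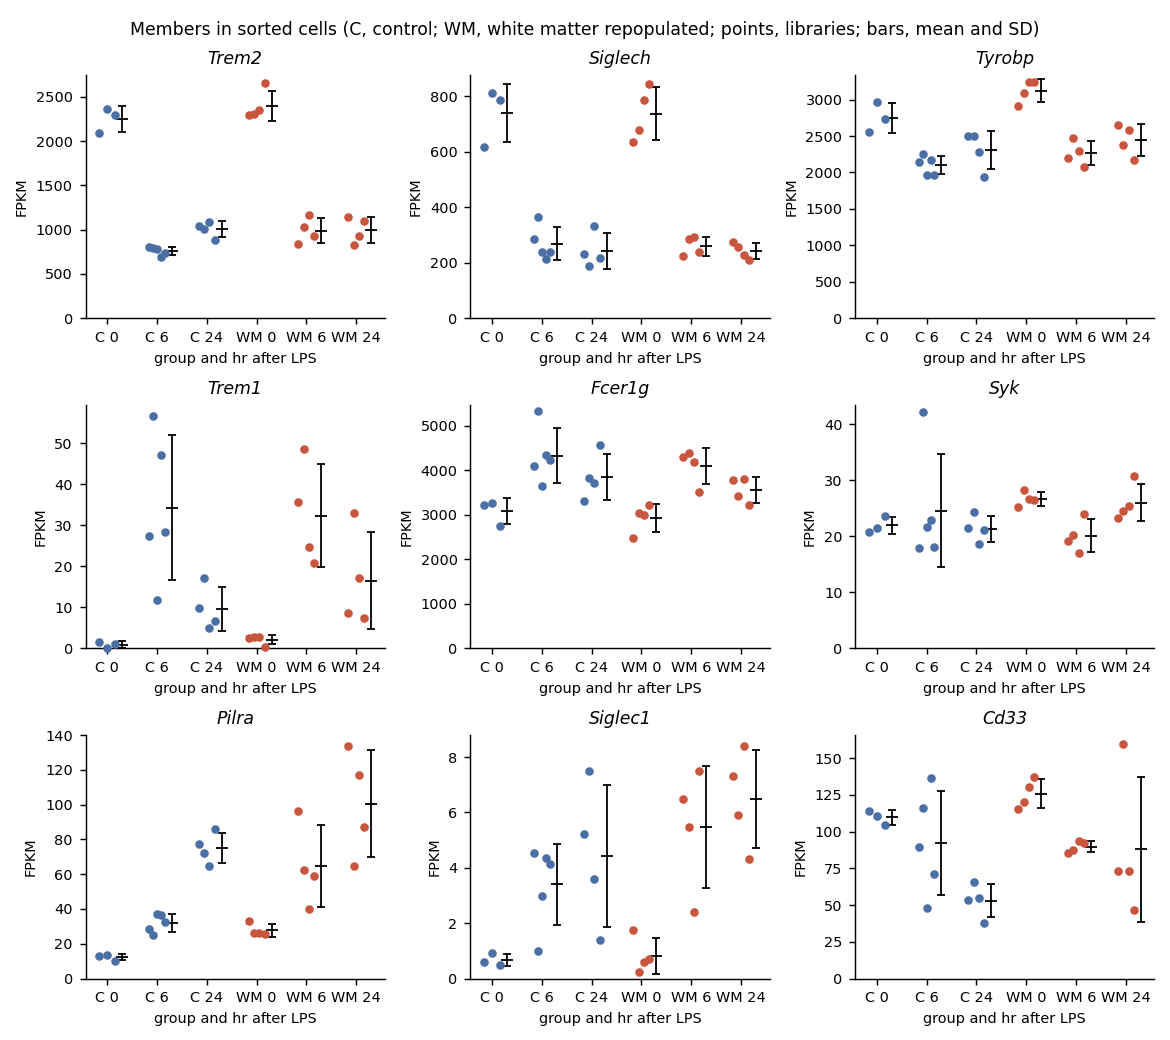
Levels in FPKM of the 9 members in sorted cells of control (C) and WM repopulated (WM) mice at 0, 6 and 24 hr after LPS, with 1 point per library and mean and SD as bars. Trem2 and Siglech are lower, and Trem1, Pilra and Siglec1 higher, in all libraries after LPS than in the 0 hr libraries of the same origin.

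Between origins, Pilra was the only one of the 9 members called in WM repopulated cells against control microglia. At 0 hr, Pilra was at 27.7 ± 3.70 FPKM (n = 4) against 12.3 ± 1.83 FPKM (n = 3), with no overlap (1.11 ± 0.23 SE, adjusted p = 0.0159, limma), where 0.717% of all genes tested were called higher. At 6 hr it was at 64.6 ± 23.5 FPKM (n = 4) against 31.9 ± 5.06 FPKM (n = 5), again with no overlap (0.94 ± 0.20 SE, adjusted p = 0.0396, limma), where 0.213% of genes were called higher. At 24 hr the difference was 0.37 (95% interval -0.08 to 0.82, adjusted p = 0.386, limma), where 3.97% of genes were called and 17.6% had an unadjusted p under 0.05, and no member was called. The 0 hr call was lost without Control_0hr replicate 3 (0.99, adjusted p = 0.0833, limma) or WM_0hr replicate 1 (1.02, adjusted p = 0.058, limma). Markers of other cells also differed at 0 hr between these libraries. B cell markers summed to 9.66 to 19.5 FPKM in WM libraries against 46.6 to 56.7 FPKM in control libraries and endothelial markers to 1.94 to 4.90 FPKM against 8.16 to 12.7 FPKM, with 1 of 2 tested called lower in each list. T and NK cell markers summed to 30.8 to 56.3 FPKM against 8.88 to 30.2 FPKM and astrocyte markers to 36.0 to 49.8 FPKM against 53.1 to 56.9 FPKM, with none called. Ttr, the choroid plexus gene, was at 273.3 to 702.9 FPKM against 72.5 to 210.6 FPKM and was not called. None of these ranges overlapped between origins, and their part in the Pilra difference was not tested. The 6 hr call was lost without any one of 7 of the 9 libraries, at 0.73 to 0.99, and when only these 2 groups were fitted (adjusted p = 0.228, limma). The lowest, 0.73 (adjusted p = 0.169, limma), was without WM_6hr replicate 1. That library held the highest monocyte and neutrophil sums of its group (3943 and 10297 FPKM), and their part in the 6 hr difference was not tested.

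The other 8 members were not called between origins at any time. Cd33, at 115.3 to 137.3 FPKM in WM cells against 104.2 to 113.8 FPKM, and Syk, at 25.3 to 28.2 FPKM against 20.7 to 23.7 FPKM, were, with Pilra, the 3 members above control in every library at 0 hr, as 7.61% of all genes were, and their differences were 0.20 (95% interval -0.42 to 0.81) and 0.27 (-0.14 to 0.68), with adjusted p of 0.856 and 0.637 (limma). Trem2 at 6 hr was at 838.3 to 1161 FPKM in WM cells against 686.5 to 803.1 FPKM, a difference of 0.37 (0.13 to 0.62, adjusted p = 0.233, limma). Trem2 and Pilra were the 2 members higher in every WM library at 6 hr, as 2.11% of all genes were. The sum of the 12 microglial markers was also higher in every WM library at 6 hr (22180 to 25997 against 19665 to 21351 FPKM). Their median log2 difference was 0.26, with none called, and their part in the Trem2 difference was not tested. For Trem2 the intervals were -0.19 to 0.37 at 0 hr and -0.27 to 0.24 at 24 hr, and for Tyrobp -0.08 to 0.45, -0.12 to 0.34 and -0.16 to 0.33 at 0, 6 and 24 hr. Intervals for Trem1 were widest, at -0.35 to 1.77, -0.91 to 0.95 and -0.37 to 1.59.

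Whether the response to LPS differed with origin was tested as an interaction. None of the 9 members was called at 6 hr or 24 hr, where 0.0237% and 0.0867% of all genes were called and 913 and 1105 genes (7.2% and 8.71%) had an unadjusted p under 0.05 (limma). The Pilra response at 24 hr was lower in WM cells by -0.74 ± 0.32 SE (95% interval -1.39 to -0.08, adjusted p = 0.499, limma), from a higher level at 0 hr. Trem2 interactions were 0.28 (-0.09 to 0.65) at 6 hr and -0.11 (-0.49 to 0.27) at 24 hr, and Trem1 interactions -0.69 (-2.10 to 0.72) and -0.10 (-1.54 to 1.35).

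In the GLOBAL experiment, Tyrobp was highest, at 1910 ± 139.3 FPKM in control mice and 2239 ± 299.0 FPKM in repopulated mice. Trem2 was at 1156, 1200, 1270 and 1767 FPKM in control libraries and at 1413, 1573 and 1648 FPKM after repopulation. Siglech was at 522.3, 572.2, 634.3 and 694.2 FPKM and at 698.7, 763.8 and 776.4 FPKM, and was the only one of the 9 whose groups did not overlap, as was so, in this direction, for 5.83% of all genes. Its difference was 0.31 ± 0.15 SE (95% interval -0.01 to 0.63, adjusted p = 0.56, limma). No member was called, and no gene of 16651 was (0.0%), with 1504 genes (9.03%) at an unadjusted p under 0.05 (limma). Differences of the other members ranged from -0.29 for Trem1 to 0.30 for Cd33, and Pilra, at 12 ± 3.41 and 11.1 ± 2.40 FPKM, differed by -0.08 (-0.60 to 0.43). Neutrophil markers summed to 2174 to 23218 FPKM in the control libraries and 1289 to 4673 FPKM in the repopulated ones. Border macrophage markers (43.5 to 59.5 against 20.8 to 35.6 FPKM), B cell markers (16.4 to 33.4 against 12.9 to 14.8 FPKM) and astrocyte markers (28.2 to 30.4 against 22.7 to 27.2 FPKM) did not overlap between control and repopulated libraries, with none called. The part of these markers in the members' values was not tested.

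**Figure D4:**
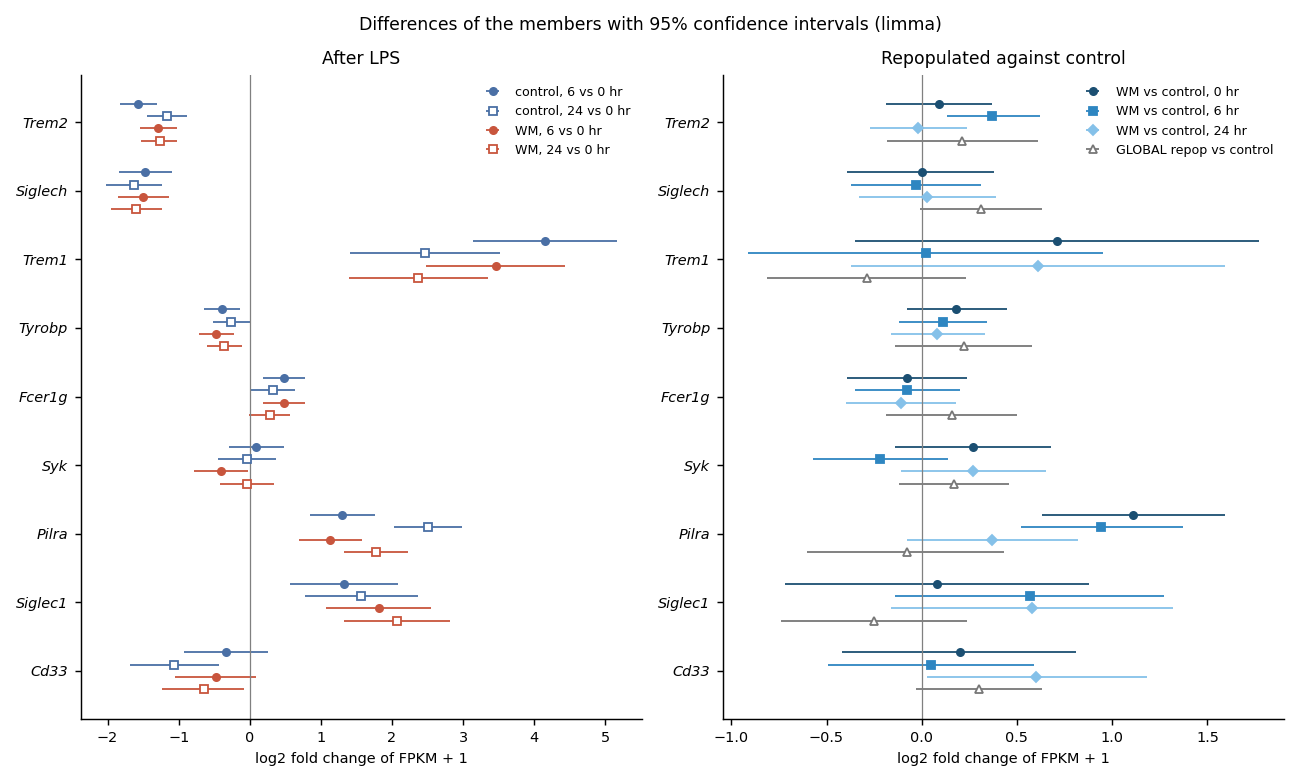
Log2 fold changes of FPKM + 1 with 95% intervals for the 9 members, after LPS in each origin (left) and in repopulated against control cells (right), from limma. After LPS, Trem2 and Siglech lie below 0 and Trem1, Pilra and Siglec1 above 0 at both times in both origins, and on the right only Pilra at 0 and 6 hr was called.

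The wider pathway was described by counts. After LPS, control microglia at 6 hr had 9 of 13 tested receptors of the DAP12 (Tyrobp) list called higher and 2 lower, with a median log2 difference of 1.34 beside 0.01 over all genes, and at 24 hr 8 higher and 2 lower, where 21.4% of all genes were called higher and 21.1% lower at 6 hr and 12.1% and 9.23% at 24 hr. The 2 lower ones were the members Trem2 and Siglech in both. In WM cells the counts were 8 and 2 at 6 hr (19.3% and 19.5% of all genes) and 4 and 2 at 24 hr (10.5% and 8.29% of all genes). The list holds the members Trem1, Trem2 and Siglech. Treml4, a relative of Trem1, was at 39.1 ± 12.7 FPKM in control microglia at 24 hr against 8.09 ± 4.54 FPKM at 0 hr (2.22 ± 0.49 SE, adjusted p = 0.00218, limma), and Pilrb1, the activating partner of Pilra, at 23.3 ± 7.90 against 3.83 ± 3.33 FPKM (2.71 ± 0.48 SE, adjusted p = 0.00025, limma).

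At 6 hr 6 of 7 monocyte markers were called higher in either origin, with medians of 3.49 in control microglia and 3.26 in WM cells, and their part in the counts of the DAP12 and Fcer1g lists was not tested. Of 10 tested receptors that pair with Fcer1g, 7 were called higher in control microglia at 6 hr and 8 in WM cells, where 21.4% and 19.3% of all genes were, and none was called lower. Fcgr4, an activating Fc receptor, went from 22.1 ± 0.946 to 198.7 ± 39.7 FPKM in control microglia (3.09 ± 0.16 SE, adjusted p = 1.63e-12, limma) and from 40.5 ± 4.99 to 260.8 ± 36.2 FPKM in WM cells (2.65 ± 0.15 SE, adjusted p = 1.18e-11, limma). Clec4e, a receptor for microbial and damage-associated glycolipids, rose by 3.81 and 4.13. Fcgr4 was also higher in WM cells than in control microglia at 0 hr (0.84 ± 0.16 SE, adjusted p = 0.0103, limma) and at 24 hr (0.71 ± 0.15 SE, adjusted p = 0.00827, limma). At 24 hr, Clec4n (-1.79 ± 0.26 SE, adjusted p = 0.000371, limma) and Cd300ld (-1.18 ± 0.33 SE, adjusted p = 0.0421, limma) of the same list were lower in WM cells. Fcgr4 was not called between origins at 6 hr. Of the 10 tested, 1 was called higher in WM cells at 0 hr, none at 6 hr, and 1 higher and 2 lower at 24 hr. Of all 12684 genes, 154, 41 and 503 were called between origins at 0, 6 and 24 hr. At 24 hr the border macrophage markers summed to 30.3 to 56.2 FPKM in WM libraries against 81.4 to 104.6 FPKM in control libraries, with no overlap and 2 of 8 tested called lower (median -1.07), of which Clec4n itself is 1, and 1 of 10 neutrophil markers was called lower (median -1.18). B cell markers (6.38 to 9.01 FPKM in WM against 26.8 to 35.5 FPKM in control libraries) did not overlap either. Nor did endothelial markers (1.2 to 7.15 against 7.43 to 12.6 FPKM), and 1 of 2 tested was called lower in each list. Of plasmacytoid dendritic cell markers 1 of 4 tested was called lower, and of monocyte markers 1 of 7 higher. The part of these cells in the differences was not tested.

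Of 19 tested ITIM receptors and Siglecs, 7 rose and 6 fell in control microglia at 6 hr, where 21.4% of all genes were called higher and 21.1% lower, and 7 rose and 7 fell in WM cells (19.3% and 19.5% of all genes), with Cd300lf (5.76 and 5.11) and Lilrb4a (4.23 and 4.20) among those that rose and Sirpa among those that fell (-1.83 in WM cells). Of 35 tested kinases and adaptors, 12 rose and 10 fell at 6 hr in control microglia and 8 rose and 11 fell in WM cells, beside the same shares of all genes, and at 24 hr 3 rose and 3 fell in control microglia (12.1% and 9.23% of all genes) and 2 rose and 6 fell in WM cells (10.5% and 8.29% of all genes). In control microglia at 6 hr, Blnk, an adaptor that Syk phosphorylates, fell from 200 ± 18.3 to 40.9 ± 5.86 FPKM (-2.27 ± 0.15 SE, adjusted p = 8.23e-11, limma) and Fgr, a Src family kinase, rose from 7.03 ± 4.50 to 77.5 ± 26.7 FPKM (3.39 ± 0.32 SE, adjusted p = 1.19e-08, limma). Of 16 brakes and sheddases, 5 rose and 4 fell in control microglia at 6 hr and 2 rose and 5 fell in WM cells, beside the same shares of all genes. In control microglia, Dok2, which recruits a Ras inhibitor, was at 2.96 and Dok1 at -1.09. Between origins, Lat alone of the kinases and adaptors was called, higher in WM cells at 0 hr (1.63 ± 0.29 SE, adjusted p = 0.00454, limma). Beside Pilra, the ITIM list had Pecam1 lower in WM cells at 0 hr (-1.54, adjusted p = 0.0259, limma) and 24 hr (-1.56, adjusted p = 0.00603, limma). Cd300lf was higher in WM cells at 24 hr, at 213.2 ± 209.1 against 51.7 ± 20.7 FPKM (1.67, adjusted p = 0.0419, limma).

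Apoe, a lipoprotein bound by Trem2, fell in control microglia from 1923 ± 532.6 to 577.0 ± 109.8 FPKM at 6 hr (-1.72 ± 0.25 SE, adjusted p = 6.76e-06, limma) and was at 969.6 ± 263.2 FPKM at 24 hr (-1.0 ± 0.26 SE, adjusted p = 0.00824, limma). In WM cells it went from 2993 ± 599.6 to 1373 ± 323.2 FPKM at 6 hr (-1.13 ± 0.24 SE, adjusted p = 0.000668, limma). WM cells exceeded control microglia in Apoe at 6 hr (1.24 ± 0.23 SE, adjusted p = 0.011, limma) and at 24 hr, with 3466 ± 957.4 FPKM against 969.6 ± 263.2 FPKM (1.83 ± 0.24 SE, adjusted p = 9.49e-05, limma). At 0 hr Apoe was not called between origins, at 2993 against 1923 FPKM, and in WM cells it was not called at 24 hr against 0 hr.

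In SVZ tissue, 9 of 27 tested kinases and adaptors and 3 of 8 ITIM receptors and Siglecs were called lower after PLX3397 and none higher, where 1.21% of all genes were called lower. The members Tyrobp and Fcer1g are 2 of the 9, and Cd33 is 1 of the 3. Fcgr3, an Fc receptor that pairs with Fcer1g, fell from 17.1 ± 1.91 to 0.0845 ± 0.0566 FPKM (-4.05 ± 0.13 SE, adjusted p = 7.45e-13, limma). Inpp5d, a lipid phosphatase that restrains ITAM signaling, fell from 3.49 ± 0.215 to 1.05 ± 0.206 FPKM (-1.14 ± 0.10 SE, adjusted p = 9.82e-07, limma).

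The genes most like Trem2 over the 24 sorted libraries of the WM experiment, by Pearson's r of log2(FPKM + 1) among 12684 genes, were Hexa (0.975), Arsb (0.967) and P2ry12 (0.963). For Tyrobp they were Pld3 (0.941), Pttg1ip (0.939) and Hexa (0.927), and for Siglech Sgce (0.955), Sparc (0.954) and St3gal6 (0.952). These libraries share their groups, so that r follows the change with LPS.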

How the data were processed

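RNA was measured in 46 libraries. The authors deposited FPKM values in 3 tables, for SVZ tissue (15 libraries), sorted cells of the WM experiment (24) and sorted cells of the GLOBAL experiment (7). The submitters' processing notes name STAR, featureCounts, edgeR and limma and the build mm10, without versions, and counting by strand is not given in the sources used here. The methods call the unit RPKM and describe Smart-seq2 libraries, whereas the labels describe another protocol.

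Members were found by symbol, and 25 symbols that a spreadsheet had turned into dates were restored through Entrez IDs with RefSeq (GRCm38.p6). The members and gene lists were chosen with earlier results of these data known. Members were tested in every comparison in which they are listed and reach the limit below, and not every value is printed. As called genes, at most the 4 with the largest log2 fold change in a comparison are named from each list. Reads were recovered from the FPKM steps, which were whole within 0.02 of a read for 100% of genes with low values. Many step sizes were tried for each gene, so that genes with few libraries above 0 can fit anyway. This share is therefore not a check of the recovered reads. Genes that reached 1 FPKM in 3 or more libraries of their table entered limma 3.58.1 (R 4.3.3), which was run on log2(FPKM + 1), with all groups of a table in a single fit, a variance trend and 2-sided tests. A fold change on this scale understates the change of low genes. The steps were tested on simulated data. Alternatives were another pseudocount, no filter, quantile normalization, a fold limit, a replicate block, fits of the compared groups alone and leaving out each library. Leaving out each library was extended to pooled SVZ reads after seeing the data. The methods give n as the number of mice in a group, the labels do not tie libraries to mice, and p-values measure the spread between libraries. No pair of libraries held identical values. Intervals from reads cover counting error only. Python 3.11.15 was used for tables and matplotlib 3.10.9 for plots.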

Additional observations from a re-analysis of the deposited data

Results flagged for a closer look

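Of 72 groups of 4 or 5 libraries in which a member could be checked, 8 held a library far from the others by Dixon's test, which flags about 1 in 20 groups by chance. In 3 of the 8 the other 4 libraries were at 0, so that any value above 0 is flagged and this rate does not apply. In SVZ control replicate 1, the library rich in choroid plexus RNA, Trem2 was low at 15.5 FPKM, against a group median of 24.4 FPKM. In SVZ_PLX3397 replicate 1, Trem2 at 0.409 FPKM, Siglech at 0.186 FPKM and Cd33 at 0.0433 FPKM were the only values above 0 in their group. In WM_0hr replicate 4, Trem2 was high at 2655 FPKM (median 2330) and Trem1 was low at 0.427 FPKM (median 2.59). Syk was high in Control_6hr replicate 2, at 42.1 FPKM (median 21.7), and Pilra was high in WM_0hr replicate 1, at 33.3 FPKM (median 26.0).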

How the results depend on the processing

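Of 40 called member differences, 0 changed sign in any alternative, 7 lost their call in at least one, and 5 of 65 uncalled differences were called in at least one. The number of members called in recovery against PLX3397 was 4 with a pseudocount of 0.1 in place of 2, and in WM against control cells at 6 hr it was 0 in place of 1 when a log2 fold change past 1 was required or only the groups compared were fitted. Leaving out 1 library gave 0 to 1 members called in WM against control cells at 0 hr, and 0 to 1 at 6 hr. Tyrobp and Fcer1g calls after LPS were also lost past a log2 fold change of 1, and their calls in SVZ tissue were kept. The Tyrobp call at 24 hr in WM cells was lost without the filter (adjusted p = 0.0812, limma). Differences that turned sign were all uncalled, and the cause was not tested. With quantile normalization they were -0.02 for Cd33 in recovery against PLX3397, -0.01 for Tyrobp in WM against control cells at 24 hr, -0.05 for Fcer1g in the GLOBAL experiment, and, among interactions, 0.01 for Siglech at 6 hr, and -0.02 for Syk and 0.09 for Fcer1g at 24 hr.

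The labels do not say that a replicate number marks a shared animal or batch, and the numbers were not taken as pairs. Deviations of libraries with the same number correlated at -0.15 to 0.49 in SVZ tissue, -0.19 to 0.27 in the WM experiment and 0.06 to 0.14 in the GLOBAL experiment, and 4 of 15, 9 of 24 and 4 of 7 libraries correlated best with their own number. With the replicate block, 0 members were called in WM against control cells at 6 hr (Pilra 0.95, adjusted p = 0.0564, limma), Tyrobp at 6 hr in control microglia was at -0.34 (adjusted p = 0.0513, limma), and the block turned Siglech at 0 hr to 0.03, Trem1 to -0.00 and Cd33 to -0.02 at 6 hr in WM against control cells, and the interactions of Fcer1g at 6 hr to -0.00 and of Siglech at 24 hr to -0.00. It changed the genes called in the interactions to 0 from 3 at 6 hr and to 6 from 11 at 24 hr, and to 55 from 0 in the GLOBAL experiment.

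With 1 library left out, WM against control cells ranged at 0 hr from -0.13 to 0.07 for Siglech, -0.13 to 0.24 for Siglec1 and -0.16 to 0.00 for Fcer1g; at 6 hr from -0.30 to 0.24 for Trem1, -0.16 to 0.21 for Cd33, -0.11 to 0.09 for Siglech and -0.13 to 0.00 for Fcer1g; and at 24 hr from -0.08 to 0.07 for Trem2 and -0.08 to 0.19 for Siglech. Syk ranged from -0.12 to 0.18 at 6 hr and -0.10 to 0.02 at 24 hr in control microglia, and from -0.12 to 0.01 at 24 hr in WM cells. Interactions at 6 hr ranged from -0.36 to 0.02 for Cd33, -0.10 to 0.10 for Siglech, -0.08 to 0.08 for Fcer1g and -0.38 to 0.04 for Pilra, and at 24 hr from -0.49 to 0.31 for Trem1, -0.08 to 0.20 for Siglech, -0.08 to 0.06 for Syk and -0.11 to 0.05 for Fcer1g. Pilra in the GLOBAL experiment ranged from -0.25 to 0.08.

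Over all genes, requiring a log2 fold change past 1 left 101 of 179 calls after PLX3397, 79 of 180 after recovery, 18 of 46 between these, 99 of 154, 27 of 41 and 200 of 503 in WM against control cells at 0, 6 and 24 hr, 2381 of 5390 and 1062 of 2708 after LPS in control microglia, and 1952 of 4921 and 789 of 2389 in WM cells. Fitting only the groups compared gave 29 in place of 46 calls in recovery against PLX3397, 16 in place of 41 and 255 in place of 503 in WM against control cells at 6 and 24 hr, and 0 in place of 3 and 17 in place of 11 interactions. With a pseudocount of 0.1, 1 and 6 interactions were called. The depth limits Cd33, Trem2 and Siglech in SVZ tissue after PLX3397, where 1 to 4 reads were found in all.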
